A study of Mus musculus with 24 samples.

Results

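The genes described here are the cytosolic heat shock and chaperonin genes of mouse liver: the HSP70 and HSP90 chaperones with their co-chaperones, the small heat shock proteins, the heat shock factors HSF1 and HSF2, and the 8 subunits of the CCT chaperonin. They were chosen by symbol, as a list of 30 genes, from the 24421 genes of the deposited count table. All 30 were found there, and all 30 passed the filter on low counts. The study measured poly(A) RNA of the medial liver lobe of C57BL/6 mice. Mice were injected with MitoCDNB at 5 mg/kg or with vehicle, 0.1% ethanol, and the liver was taken after 1 h or 4 h. MitoCDNB is a form of the thiol-reactive compound CDNB that is targeted to mitochondria, where it acts on glutathione and on thioredoxin reductase. Each of the 4 groups (Vehicle 1 h, MitoCDNB 1 h, Vehicle 4 h, MitoCDNB 4 h) held 6 libraries, which the labels describe as 6 mice, and no group was untreated. Age and sex were not given in the sources used here.

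Cells under heat or thiol-reactive stress hold misfolded proteins, and the transcription factor HSF1, normally held inactive by chaperones, then binds heat shock elements in the promoters of chaperone genes. HSP70 proteins bind and release unfolded clients in a cycle driven by J-domain proteins, which deliver clients and stimulate ATP hydrolysis, and by nucleotide exchange factors, which reset the chaperone. HSP90 finishes the folding of kinases and steroid receptors with a set of co-chaperones, and CCT, a double ring of different subunits, folds actin and tubulin. In liver, Hspa8 and Hsp90ab1 are made constitutively, whereas Hspa1a and Hspa1b are the classic stress-induced pair.

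Promoter sequence was read from RefSeq for GRCm38.p6, which matched 24 of the 30 members. Hspa8, Hsp90aa1, Hsp90ab1, Cryab, Hsf1 and Cct4 had no promoter there and were not searched. The 250 bases before each start were searched for a heat shock element of 3 alternating units, GAANNTTCNNGAA or its reverse complement TTCNNGAANNTTC. None of the 24 members held one, against 0.514% of 27025 genes in the RefSeq promoter table. Only exact matches of all 3 units were counted, so an element with a mismatched unit was missed by this search. A pair of units, GAANNTTC or TTCNNGAA (each its own reverse complement, and each contained in the element of 3 units), was searched for after the first search gave none. It stood in 9 of the 24 members, 37.5%, against 14.5% of all genes of that promoter table. In the HSP70 system 5 of 9 members with a promoter held a pair, and among CCT subunits 2 of 7. The last 120 bases before the start are shown for the stress-induced pair and for the members on which the results turn, with the unit pair in capitals where there is one. Hspa1a lies at chr17:34972157-34972276 on the minus strand, Hspa1b at chr17:34959239-34959358 (minus), Hsph1 at chr5:149636337-149636456 (minus, the outer of its starts), Dnajb4 at chr3:152193846-152193965 (minus, an inner start), Bag3 at chr7:128523463-128523582 (plus) and Chordc1 at chr9:18292147-18292266 (plus). Bag3 and Chordc1 hold no pair in this window. The outer start of Dnajb4, not shown, held no pair in its 250 bases.
Hspa1a: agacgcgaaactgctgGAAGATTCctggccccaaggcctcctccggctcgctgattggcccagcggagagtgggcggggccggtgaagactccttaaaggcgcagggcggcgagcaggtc
Hspa1b: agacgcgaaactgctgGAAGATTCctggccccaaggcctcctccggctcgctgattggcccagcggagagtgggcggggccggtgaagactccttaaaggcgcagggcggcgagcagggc
Hsph1: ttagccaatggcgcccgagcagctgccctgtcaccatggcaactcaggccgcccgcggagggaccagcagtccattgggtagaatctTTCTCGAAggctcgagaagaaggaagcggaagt
Dnajb4: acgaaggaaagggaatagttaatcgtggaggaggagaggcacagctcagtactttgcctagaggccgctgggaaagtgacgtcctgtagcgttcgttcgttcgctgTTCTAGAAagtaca
Bag3: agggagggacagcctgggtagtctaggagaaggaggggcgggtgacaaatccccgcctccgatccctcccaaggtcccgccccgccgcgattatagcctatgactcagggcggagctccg
Chordc1: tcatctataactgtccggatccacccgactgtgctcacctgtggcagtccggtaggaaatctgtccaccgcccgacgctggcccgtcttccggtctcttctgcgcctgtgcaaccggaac
The Hspa1a and Hspa1b windows were identical at 119 of these 120 bases and at 247 of 250. A match is a string of letters and was not tested as a binding site.

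Libraries held 25132737 to 37231025 counts, and the members' counts ran from 26 (Cryab) to 35266 (Hspa8) in a single library. Levels are given as CPM (counts per megacount of the TMM-scaled library), and differences as log2 fold changes with their standard error (SE). A gene was called where edgeR's quasi-likelihood test gave a Benjamini-Hochberg adjusted p under 0.05 over the 13833 genes tested. All 8 hepatocyte markers were above 0 in every library. In bulk tissue, fewer cells of a type and less RNA per cell cannot be told apart. Vehicle 1 h replicates 1 and 2 stood high in most HSP70 and HSP90 genes. Their median difference from the 24-library mean of log2(CPM + 1) was 0.86 and 0.72 over the 10 HSP70 genes and 0.66 and 0.57 over the 7 HSP90 genes. Vehicle 4 h replicate 1 (-0.67 and -0.40), MitoCDNB 4 h replicate 2 (-0.46 and -0.56) and MitoCDNB 4 h replicate 6 (-0.51 and -0.30) stood low. MitoCDNB 1 h replicate 5 (-0.29 and -0.32) and MitoCDNB 1 h replicate 6 (-0.41 and -0.30) were also low in both roles. Calls that changed when such libraries were left out are given with both values.

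**Figure D1:**
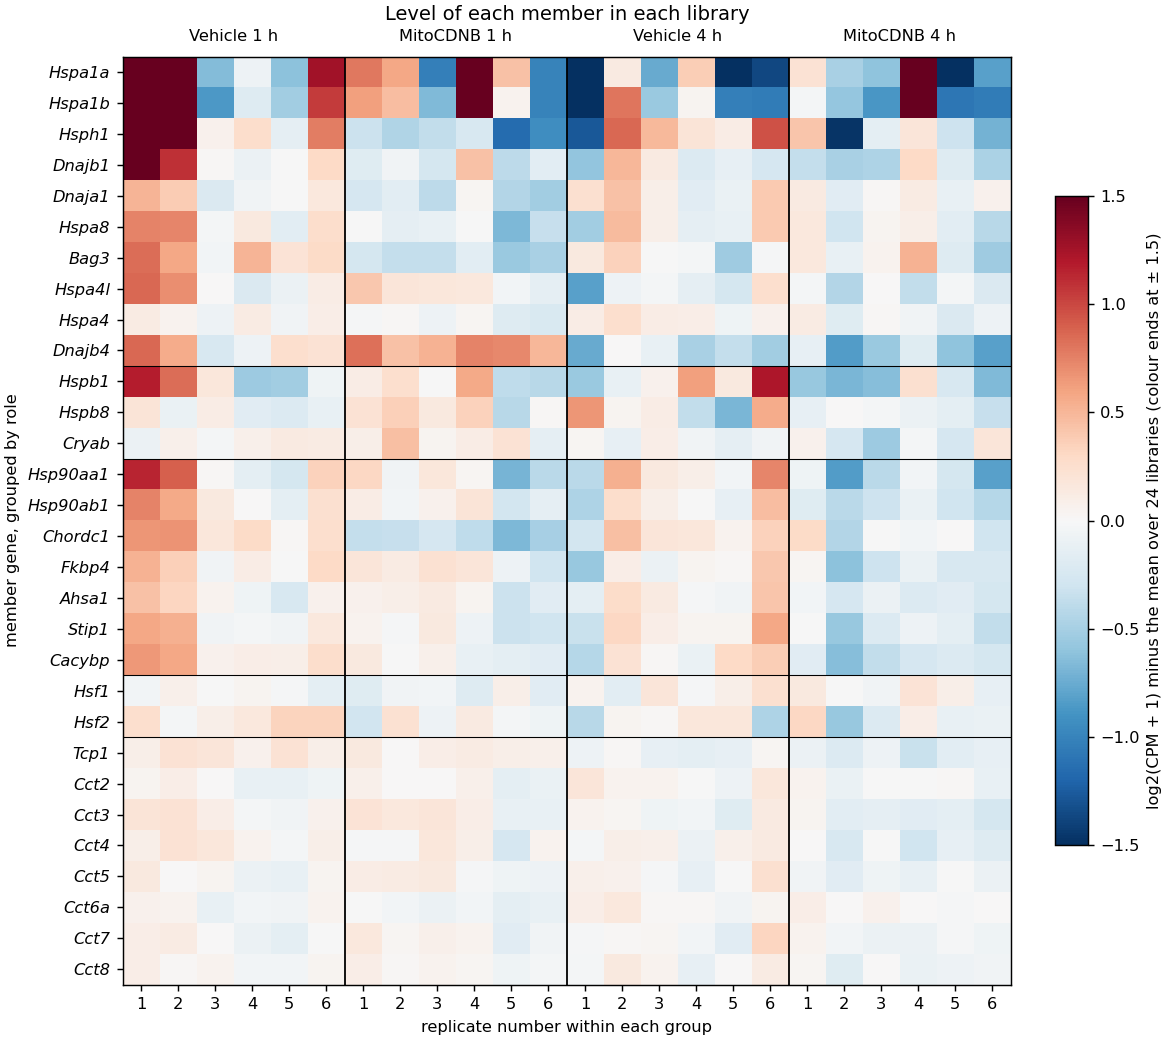
Level of each of the 30 members in each of the 24 libraries, as log2(CPM + 1) minus the gene's mean over all libraries. Columns are libraries by group and replicate number, rows are genes by role, red is above and blue below the mean, and the colour ends at ± 1.5. Vehicle 1 h replicates 1 and 2 are red across the HSP70 and HSP90 rows, while the CCT rows stay pale in all groups.

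At 1 h after MitoCDNB, no member was higher and 4 of 30 were lower than in vehicle liver: the HSP90 co-chaperone Chordc1 and the HSP70 system genes Bag3, Hsph1 and Dnaja1. These are 13.3% of the members, where 6.57% of all genes tested were called in either direction, 2.70% higher and 3.87% lower. The log2 fold change lay below 0 in 24 of the 30, with a median of -0.16, against 0.00 over all genes tested. That median ran from -0.21 to -0.09 when single libraries were left out, and from -0.17 to -0.04 under the other alternatives run. The 4 calls fell in the HSP70 system, 3 of 10, and among HSP90 and its co-chaperones, 1 of 7. No small heat shock protein (0 of 3), heat shock factor (0 of 2) or CCT subunit (0 of 8) was called.

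Bag3, a nucleotide exchange factor that couples HSP70 to small heat shock proteins and selective autophagy, lies at chr7:128523616-128546981 on the plus strand. Its lowest, median and highest levels were 22.8, 31.5 and 43.0 CPM in Vehicle 1 h and 15.75, 18.1 and 20.95 CPM in MitoCDNB 1 h. All 6 treated livers were below the lowest vehicle liver. The means were 32.0 ± 7.13 and 18.2 ± 1.89 CPM (SD, n = 6 each), and Bag3 fell by 0.82 on the log2 scale (SE 0.16, adjusted p = 0.00207, edgeR). It was called in every fit that left out 1 library and also without Vehicle 1 h replicates 1 and 2 (-0.64, adjusted p = 0.0266).

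Hsph1, the HSP110 protein that exchanges nucleotide on HSP70 and holds unfolded proteins, lies at chr5:149614287-149636376 on the minus strand. It measured 26.0, 41.95 and 96.2 CPM (lowest, median, highest) in Vehicle 1 h and 12.3, 21.3 and 24.1 CPM in MitoCDNB 1 h. The groups did not overlap, but the vehicle values were spread widely, with replicates 1 and 2 at 96.2 and 83.7 CPM and the other 4 at or below 49.2 CPM. Hsph1 fell by 1.47 on the log2 scale (SE 0.39, adjusted p = 0.0245, edgeR). Without Vehicle 1 h replicates 1 and 2 the difference was -0.86 and was not called (adjusted p = 0.264), and the call was also lost when Vehicle 1 h replicate 1 or 2 or MitoCDNB 1 h replicate 5 or 6 alone was left out (adjusted p up to 0.0723).

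Dnaja1, a J-domain partner of HSP70 at chr4:40722150-40737149 on the plus strand, measured 171, 209 and 283 CPM in Vehicle 1 h and 138, 158.5 and 202 CPM in MitoCDNB 1 h. The ranges overlapped: MitoCDNB replicates 2 and 4, at 178 and 202 CPM, lay inside the vehicle range. Dnaja1 fell by 0.43 on the log2 scale (SE 0.12, adjusted p = 0.0304, edgeR). That call was lost in 7 of the 12 fits that left out 1 library (adjusted p up to 0.0993: without Vehicle 1 h 1, 2 or 6, or MitoCDNB 1 h 1, 3, 5 or 6) and without Vehicle 1 h 1 and 2 together (-0.25, adjusted p = 0.315). A share of 17.7% of its 50-base stretches also occurs in other genes, most of it in the pseudogene Gm15542, and its exons overlap those of Smu1 on the other strand, so reads may be shared.

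Chordc1, a zinc-binding co-chaperone of HSP90, lies at chr9:18292125-18317442 on the plus strand and had the smallest adjusted p of the members at 1 h. It measured 20.6, 24.8 and 33.2 CPM in Vehicle 1 h and 12.45, 15.5 and 17.01 CPM in MitoCDNB 1 h. Every treated liver lay below every vehicle liver. The means were 26.6 ± 5.25 and 15.1 ± 1.58 CPM (SD, n = 6 each), and Chordc1 fell by 0.82 on the log2 scale (SE 0.13, adjusted p = 2.88e-04, edgeR). It was called in all 12 fits without 1 library, without Vehicle 1 h replicates 1 and 2 (-0.63, adjusted p = 0.0043), and within 1 h replicates 1 to 3 (-0.88, adjusted p = 0.0192) and 4 to 6 (-0.74, adjusted p = 0.0384) alone. The other 3 genes were not called within either set of 3 replicates: Bag3 differed by -0.87 and -0.76 there (adjusted p = 0.101 and 0.111), Hsph1 by -1.69 and -1.11 (adjusted p = 0.168 and 0.416), and Dnaja1 by -0.52 and -0.32 (adjusted p = 0.143 and 0.419).

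Bag3, Chordc1 and Hsph1 were the members whose 1 h groups did not overlap in CPM, and all 3 were lower with MitoCDNB. That is 3 of 30, where 2.54% of all genes tested were lower without overlap. The summed level of the 4 neutrophil markers in the table was also separate between these groups, at 1.62 to 5.77 CPM in Vehicle 1 h and 6.82 to 10.8 CPM in MitoCDNB 1 h. The 6 cholangiocyte markers summed to 20.1 to 28.3 CPM and to 21.7 to 55.1 CPM, with overlap. No defining marker of either list was at 0 in all libraries, and their part in the member differences was not tested.

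**Figure D2:**
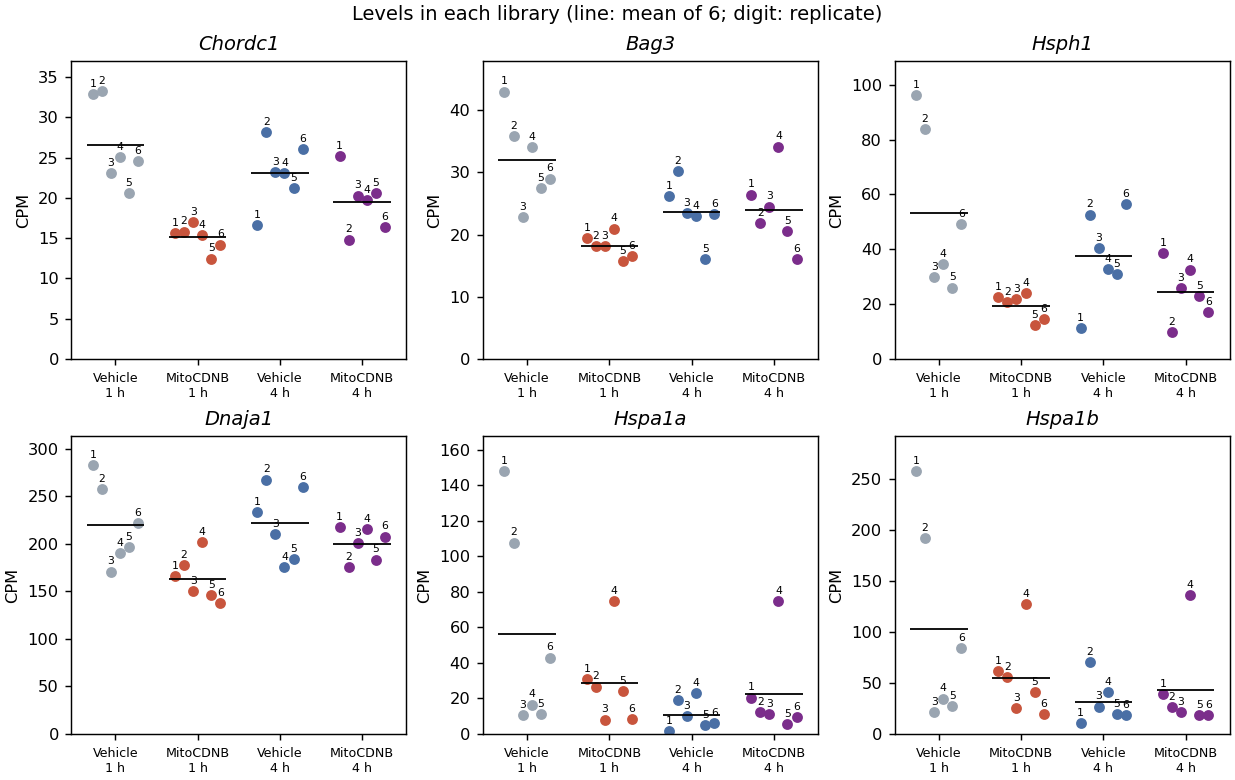
CPM of Chordc1, Bag3, Hsph1, Dnaja1, Hspa1a and Hspa1b in each library of the 4 groups. Points are libraries with their replicate number, and lines are group means of 6. Chordc1, Bag3 and Hsph1 do not overlap between the 1 h groups, while single libraries dominate Hspa1a and Hspa1b.

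The stress-induced HSP70 genes themselves were not called at 1 h. Hspa1a (chr17:34969190-34972156, minus strand) measured 10.7, 29.8 and 148 CPM in Vehicle 1 h and 8.08, 25.3 and 74.8 CPM in MitoCDNB 1 h. The highest values belonged to Vehicle replicates 1 and 2, at 148 and 108 CPM, and to MitoCDNB replicate 4, and the groups overlapped. The log2 fold change was -0.97 with an SE of 0.79 (adjusted p = 0.616, edgeR). Hspa1b (chr17:34956436-34959238, minus strand) had its highest values in the same libraries, with a range of 21.5 to 258 CPM in Vehicle 1 h and 19.4 to 128 CPM in MitoCDNB 1 h, and a log2 fold change of -0.90 (SE 0.68, adjusted p = 0.577). Without Vehicle 1 h replicates 1 and 2 both signs turned, to 0.50 for Hspa1a and 0.39 for Hspa1b (adjusted p = 0.872 and 0.88), and within 1 h replicates 4 to 6 alone they were 0.59 and 0.36 (adjusted p = 0.905 and 0.936). The pair cannot be separated with confidence: 58.8% of the 50-base stretches of Hspa1a also occur in Hspa1b, and 62.3% of those of Hspa1b in Hspa1a. Hspa1a exons also overlap those of Gm20481 on the other strand.

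Among the remaining HSP70 genes, the constitutive chaperone Hspa8 measured 574.5, 739 and 1074 CPM in Vehicle 1 h and 399, 587 and 636 CPM in MitoCDNB 1 h. The ranges overlapped, and its log2 fold change of -0.52 (SE 0.17, adjusted p = 0.0711, edgeR) was not called, although DESeq2 called it. Of its 50-base stretches, 64.4% also occur in the gene Gm15459. The J-domain gene Dnajb1, a classic HSF1 target, had a log2 fold change of -0.72 (SE 0.27, adjusted p = 0.128). The HSP110-family exchange factors Hspa4 and Hspa4l were at -0.12 and -0.17 and were not called.

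The J-domain gene Dnajb4 was the 1 HSP70 member with a positive value at 1 h. It measured 22, 30.9 and 48.3 CPM in Vehicle 1 h and 35.7, 40.8 and 46.9 CPM in MitoCDNB 1 h. The groups overlapped through Vehicle replicates 1 and 2, at 48.3 and 38.9 CPM, while the other 4 vehicle livers lay at or below 31.2 CPM. The log2 fold change was 0.33 (SE 0.17, adjusted p = 0.326, edgeR), and without those 2 vehicle libraries it was 0.60 and called (adjusted p = 0.0322).

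Of the HSP90 genes other than Chordc1, none was called at 1 h, and all 6 had a log2 fold change below 0, from -0.14 in Ahsa1, the activator of the HSP90 ATPase, to -0.50 in the inducible chaperone Hsp90aa1. Hsp90aa1 measured 100.5, 137 and 266 CPM in Vehicle 1 h and 74.1, 119 and 150 CPM in MitoCDNB 1 h, with overlapping ranges (SE 0.24, adjusted p = 0.292, edgeR). Its constitutive partner Hsp90ab1 was at -0.30 (SE 0.14, adjusted p = 0.251). Of the 50-base stretches of Hsp90aa1, 44.1% also occur in Gm12346. For Ahsa1, 12.9% also occur in other genes, most of them in Gm49207, and Ahsa1 exons overlap those of Gm47293 on the same strand. Cacybp, grouped here with the HSP90 co-chaperones, was at -0.37 (adjusted p = 0.098, edgeR). Stip1, the adaptor that passes clients from HSP70 to HSP90, was at -0.29 (adjusted p = 0.27), and the immunophilin Fkbp4 at -0.15 (adjusted p = 0.647).

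The transcription factors of the response were not called at 1 h. Hsf1 (chr15:76477422-76501913, plus strand) measured 12.3 to 14.7 CPM in Vehicle 1 h and 11.9 to 14.7 CPM in MitoCDNB 1 h, with a log2 fold change of -0.08 (SE 0.08, adjusted p = 0.691, edgeR). Hsf2 was at -0.22 (SE 0.14, adjusted p = 0.453). RNA levels of these factors do not report their activity, which was not measured. The small heat shock proteins, which hold unfolded proteins without ATP, were at -0.28 for Hspb1 (SE 0.33), 0.17 for Hspb8 (SE 0.17) and 0.13 for Cryab (SE 0.17). Hspb1 shares 48.8% of its 50-base stretches with Hsp25-ps1. Cryab was present at 1.52 to 1.93 CPM in Vehicle 1 h, and its exons overlap those of Hspb2 on the other strand.

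**Figure D3:**
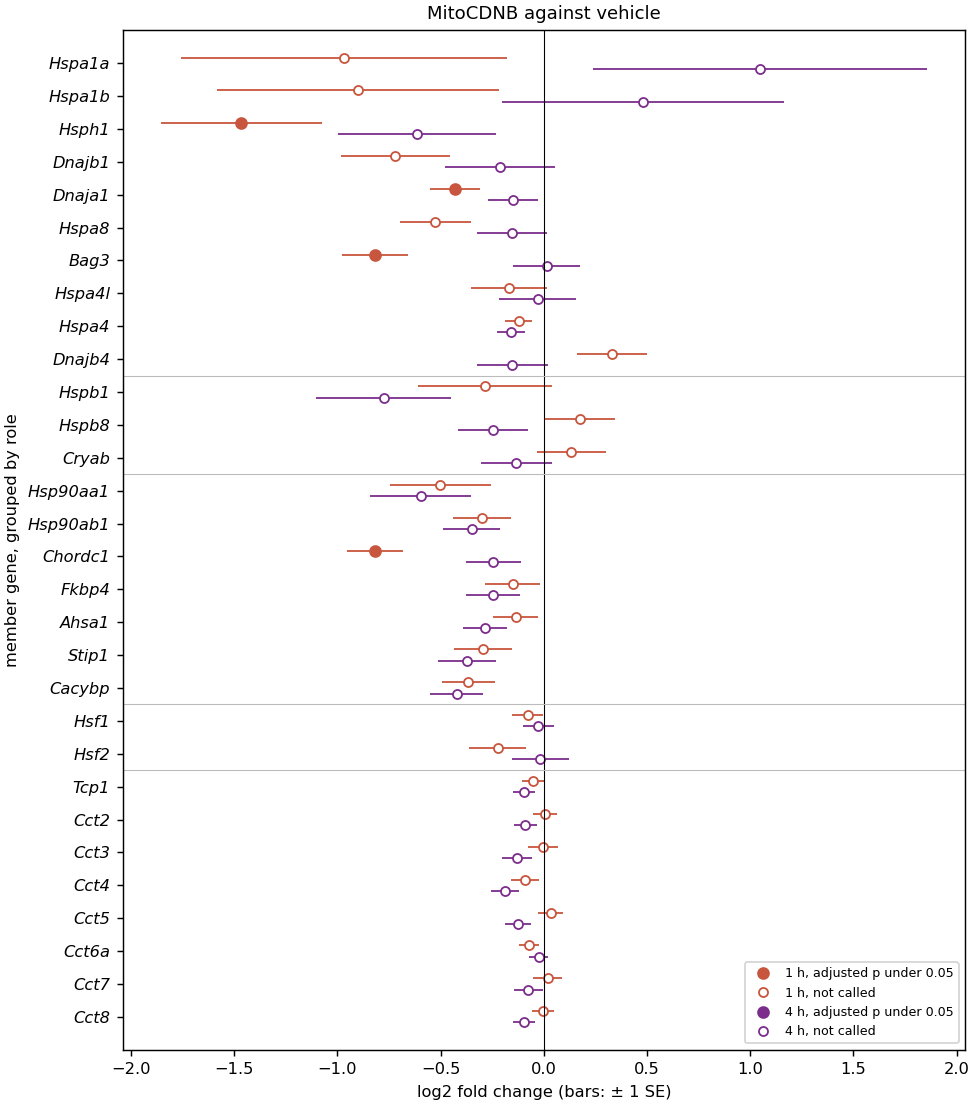
log2 fold change of MitoCDNB against vehicle at 1 h and 4 h for each member, grouped by role, with bars of ± 1 SE. Filled points have an adjusted p under 0.05: Chordc1, Bag3, Hsph1 and Dnaja1 at 1 h, and none at 4 h.

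At 4 h after MitoCDNB no member was called in either direction by edgeR, and none by DESeq2; 8 of 30 had an unadjusted p under 0.05, as did 1981 of the 13833 genes tested (14.3%). Few genes were called at all, 0.824% of those tested. No member's groups were free of overlap, against 0.896% of all genes. The log2 fold change lay below 0 in 27 of 30, with a median of -0.15 against 0.00 over all genes. The 3 exceptions were Hspa1a at 1.05 (SE 0.81, adjusted p = 0.62), Hspa1b at 0.48 (SE 0.68, adjusted p = 0.817) and Bag3 at 0.01 (SE 0.16, adjusted p = 0.982).

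Hspa1a measured 1.46, 8.06 and 22.8 CPM in Vehicle 4 h and 5.42, 11.7 and 74.8 CPM in MitoCDNB 4 h. The lowest value came from Vehicle replicate 1 and the highest from MitoCDNB replicate 4, with all other treated libraries at or below 20.5 CPM. The other member of the pair, Hspa1b, had medians of 23.04 CPM in Vehicle 4 h and 23.9 CPM in MitoCDNB 4 h, and again 1 treated library, replicate 4, stood at 136 CPM. Without that library the log2 fold change was 0.12 for Hspa1a and -0.33 for Hspa1b, and without Vehicle 4 h replicate 1 and MitoCDNB 4 h replicate 2 they were 0.94 and 0.41, none of them called.

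All 7 HSP90 genes had values below 0 at 4 h, from -0.24 in Chordc1 to -0.60 in Hsp90aa1, and 5 of the 7 had an unadjusted p under 0.05, where 14.3% of all genes did. At 1 h it was 4 of the 7, where 17.7% of all genes did. Within groups these genes rose and fell together (Pearson's r of 0.74 to 0.95 over their pairs), so they are not 7 separate observations. Cacybp (chr1:160202367-160212875, minus strand) had the smallest p of the 7 at 4 h. It measured 11.4, 17.1 and 20.5 CPM in Vehicle 4 h and 9.72, 12.9 and 13.8 CPM in MitoCDNB 4 h, and the groups overlapped through Vehicle replicate 1. The log2 fold change was -0.42 (SE 0.13, adjusted p = 0.113, edgeR). Without Vehicle 4 h replicate 1 it was -0.51 and called (adjusted p = 0.0196), the only member called in that fit, in which the calls over all genes rose from 114 to 412.

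The remaining HSP90 values at 4 h were -0.60 for Hsp90aa1 (SE 0.24, adjusted p = 0.253), -0.35 for Hsp90ab1 (SE 0.14, adjusted p = 0.23), -0.37 for Stip1 (adjusted p = 0.203), -0.29 for Ahsa1 (adjusted p = 0.201) and -0.25 for Fkbp4 (adjusted p = 0.412). Hsp90ab1 measured 350, 497 and 662 CPM in Vehicle 4 h and 359, 390 and 450 CPM in MitoCDNB 4 h. The treated livers lay within the vehicle range. Among the small heat shock proteins, Hspb1 had a log2 fold change of -0.78 (SE 0.33, adjusted p = 0.274), with 9.99 to 36.6 CPM in Vehicle 4 h and 9.08 to 18.1 CPM in MitoCDNB 4 h. Hsf1 and Hsf2 were at -0.03 and -0.02. The neutrophil markers summed to 0.466 to 4.64 CPM in Vehicle 4 h and 0.531 to 1.73 CPM in MitoCDNB 4 h.

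The MitoCDNB effects at the 2 times were then compared directly. Bag3 was the 1 member of 30 whose effect differed, 3.33% of the members against 4.07% of all genes tested, 2.38% with a higher effect at 4 h. Its effect at 4 h was higher than that at 1 h by 0.83 on the log2 scale (SE 0.23, adjusted p = 0.0374, edgeR). Bag3 measured 16, 23.4 and 30.2 CPM in Vehicle 4 h and 16, 23.2 and 34.2 CPM in MitoCDNB 4 h, and the 4 h groups overlapped. The call was lost in 14 of the 24 fits without 1 library (adjusted p from 0.0138 to 0.0701): without Vehicle 1 h 1, 2 or 4, MitoCDNB 1 h 2, 3, 5 or 6, Vehicle 4 h 3, 4, 5 or 6, and MitoCDNB 4 h 1, 3 or 4. Without Vehicle 1 h replicates 1 and 2 together it was also lost. For Chordc1 the difference was 0.57 (adjusted p = 0.0941), for Hsph1 0.85 (adjusted p = 0.464) and for Dnaja1 0.28 (adjusted p = 0.442), so none of these 3 was shown to differ between times.

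No CCT subunit was called after MitoCDNB at either time. At 1 h the 8 log2 fold changes ran from -0.09 in Cct4 to 0.03 in Cct5, with SEs of 0.05 to 0.07, no call and no unadjusted p under 0.05. At 4 h all 8 were below 0, from -0.19 in Cct4 to -0.02 in Cct6a, again with no call. Cct4 alone had an unadjusted p under 0.05 at 4 h (adjusted p = 0.18, edgeR), with 41.2 to 48.1 CPM in Vehicle 4 h and 35.4 to 44.1 CPM in MitoCDNB 4 h. Per kilobase of exon, the median level in Vehicle 1 h was highest for Tcp1, the alpha subunit, at 61.8 CPM per kb. Cct5 (36.6) and Cct8 (35.4) followed, and their ranges of 33.4 to 40.1 and 33.6 to 37.3 CPM per kb overlapped. Cct2 (28.6), Cct3 (25.2), Cct7 (23.2) and Cct4 (18.7 CPM per kb) came next, and no exon length was computed for Cct6a. For comparison, Hspa8 stood at 309 and Hsp90ab1 at 219 CPM per kb, and Hspa1a at 10.04 CPM per kb.

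**Figure D4:**
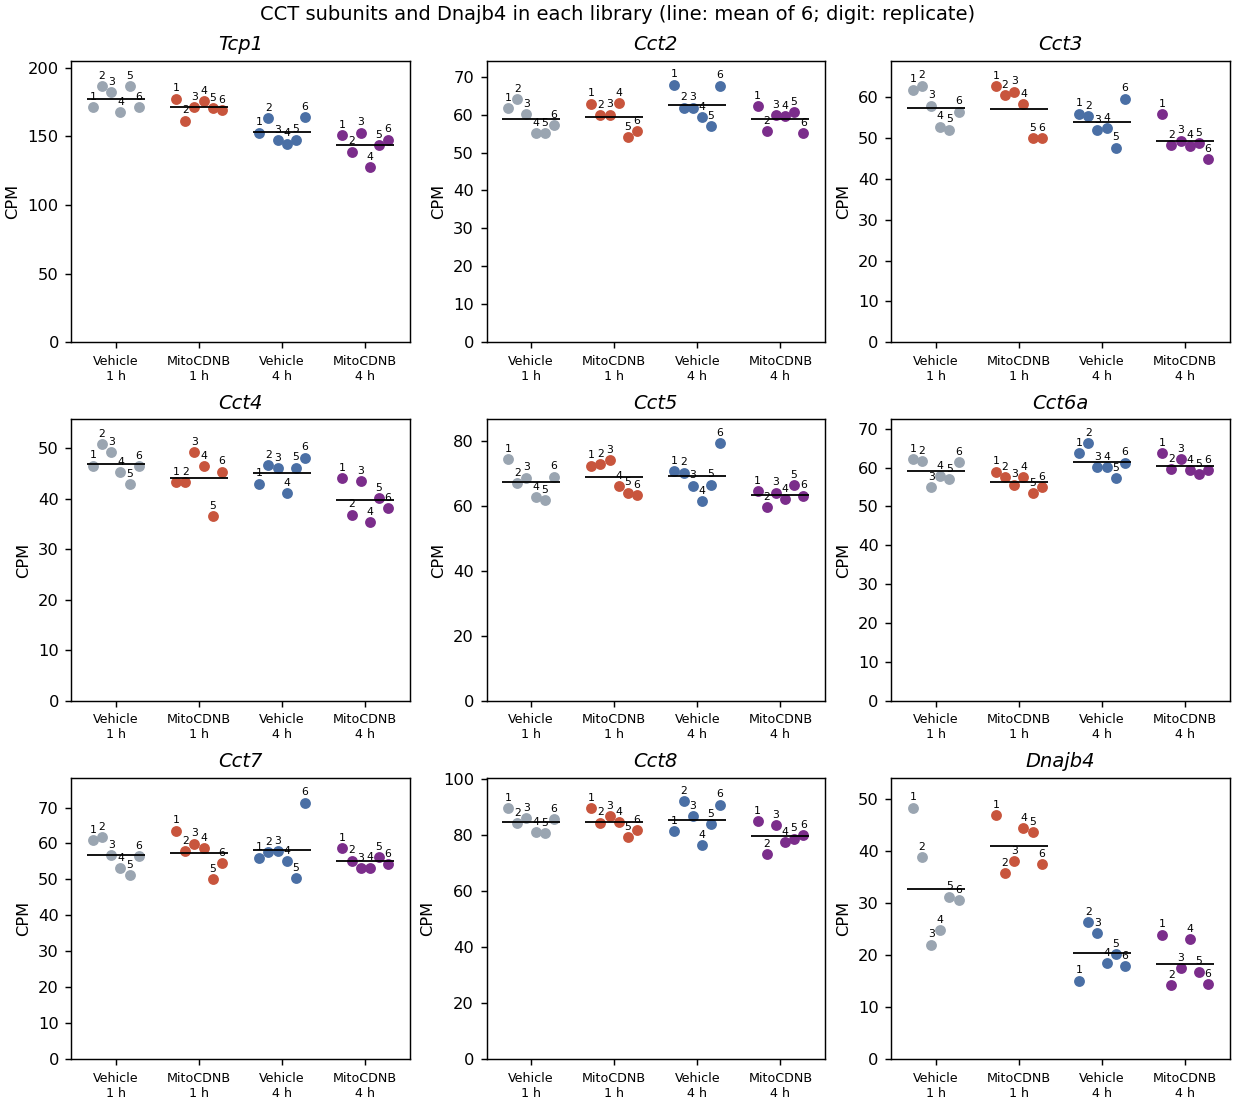
CPM of the 8 CCT subunits and of Dnajb4 in each library of the 4 groups. Points are libraries with their replicate number, and lines are group means of 6. Tcp1 and Dnajb4 are lower at 4 h than at 1 h within both treatments, and of the other subunits Cct3 was called in MitoCDNB liver.

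Levels at 4 h were also compared with those at 1 h within each treatment. These comparisons share their 1 h and 4 h libraries with the treatment comparisons. Time after injection cannot be told apart from clock time or from library number. All 4 h libraries were numbered before all 1 h libraries. In vehicle liver 2 of 30 members were lower at 4 h and none was higher, 6.67% of the members against 5.44% of all genes tested in either direction, 2.99% higher and 2.46% lower. They were the J-domain gene Dnajb4 and the CCT subunit Tcp1. In MitoCDNB liver 4 of 30 were called, 13.3% against 28.5% of all genes tested: Dnajb4, Tcp1 and Cct3 lower (13.4% of all genes) and Chordc1 higher (15.1% of all genes).

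Dnajb4 (chr3:152178511-152210302, minus strand) had the largest time difference of the called members. From 22, 30.9 and 48.3 CPM in Vehicle 1 h it stood at 15.1, 19.3 and 26.3 CPM in Vehicle 4 h. The ranges overlapped, and it fell by 0.68 on the log2 scale (SE 0.17, adjusted p = 0.0205, edgeR). That call was lost without Vehicle 1 h replicate 1 (adjusted p = 0.0554) and without replicates 1 and 2 together (-0.42, adjusted p = 0.156). It was also lost when only the vehicle groups were fitted (adjusted p = 0.074) and within 1 h replicates 1 to 3 or 4 to 6 alone (adjusted p = 0.0691 and 0.138). In MitoCDNB liver it stood at 35.7, 40.8 and 46.9 CPM at 1 h and at 14.2, 17.1 and 23.9 CPM at 4 h. All 6 livers at 4 h lay below all 6 at 1 h, and Dnajb4 fell by 1.17 (SE 0.17, adjusted p = 2.63e-05), a call held in all 12 fits without 1 library.

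Tcp1 (chr17:12915701-12925067, plus strand) measured 168, 177 and 187 CPM in Vehicle 1 h and 145, 150 and 164 CPM in Vehicle 4 h. These groups did not overlap, which held for 1.20% of all genes in this direction. Tcp1 fell by 0.21 on the log2 scale (SE 0.05, adjusted p = 0.0196, edgeR), and the call was lost without Vehicle 1 h replicate 5 (adjusted p = 0.0522), without Vehicle 1 h replicates 1 and 2 together (adjusted p = 0.0614), when only the vehicle groups were fitted (adjusted p = 0.085), and within 1 h replicates 1 to 3 or 4 to 6 alone (adjusted p = 0.112 and 0.167). In MitoCDNB liver it measured 162, 171 and 178 CPM at 1 h and 128, 146 and 153 CPM at 4 h, again without overlap, and fell by 0.25 (SE 0.05, adjusted p = 8.97e-04), called in all 12 fits without 1 library. Its exons overlap those of Acat3 and Mrpl18 on the other strand. No source used here says whether counting used strand, and reads of these genes may be shared. Acat3 also fell with time, by 0.38 in vehicle liver (adjusted p = 0.00435) and by 0.23 in MitoCDNB liver (adjusted p = 0.0233). Mrpl18 was at -0.15 and -0.16 and was not called.

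Cct3, the gamma subunit, fell by 0.22 in MitoCDNB liver (SE 0.07, adjusted p = 0.0229, edgeR), from a median of 59.5 CPM at 1 h to 48.6 CPM at 4 h, with overlapping groups. The call was lost without MitoCDNB 1 h replicate 1, 2 or 3, or without MitoCDNB 4 h replicate 6 (adjusted p up to 0.0674), and within 1 h replicates 4 to 6 alone the difference was -0.10 (adjusted p = 0.42). The remaining 6 subunits lay between -0.15 and 0.10 in that comparison and were not called. Chordc1 rose by 0.37 in MitoCDNB liver (SE 0.13, adjusted p = 0.0415), from a median of 15.5 CPM at 1 h to 20.01 CPM at 4 h. That call was lost in 9 of 12 fits without 1 library (adjusted p up to 0.119: without MitoCDNB 4 h 1, 3, 4 or 5, or MitoCDNB 1 h 1, 2, 4, 5 or 6), within 1 h replicates 1 to 3 alone (0.27, adjusted p = 0.284) and with the replicate number as a block (adjusted p = 0.0511). In vehicle liver Chordc1 was at -0.20 (adjusted p = 0.425).

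Cacybp, Dnajb4 and Tcp1 were the members whose MitoCDNB groups did not overlap between times, all lower at 4 h, where 6.05% of all genes were lower without overlap. Cacybp measured 13.8, 14.99 and 17.4 CPM at 1 h and 9.72, 12.9 and 13.8 CPM at 4 h, but its log2 fold change of -0.30 was not called (adjusted p = 0.0894, edgeR). The stress-induced pair showed large values with large errors in vehicle liver: -2.38 for Hspa1a (SE 0.83, adjusted p = 0.102) and -1.73 for Hspa1b (SE 0.70, adjusted p = 0.164). DESeq2 called Hspa1a there. Without Vehicle 1 h replicates 1 and 2 the values were -0.92 (adjusted p = 0.613) and -0.43 (adjusted p = 0.811). In MitoCDNB liver they were at -0.37 and -0.35 and were not called.

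**Figure D5:**
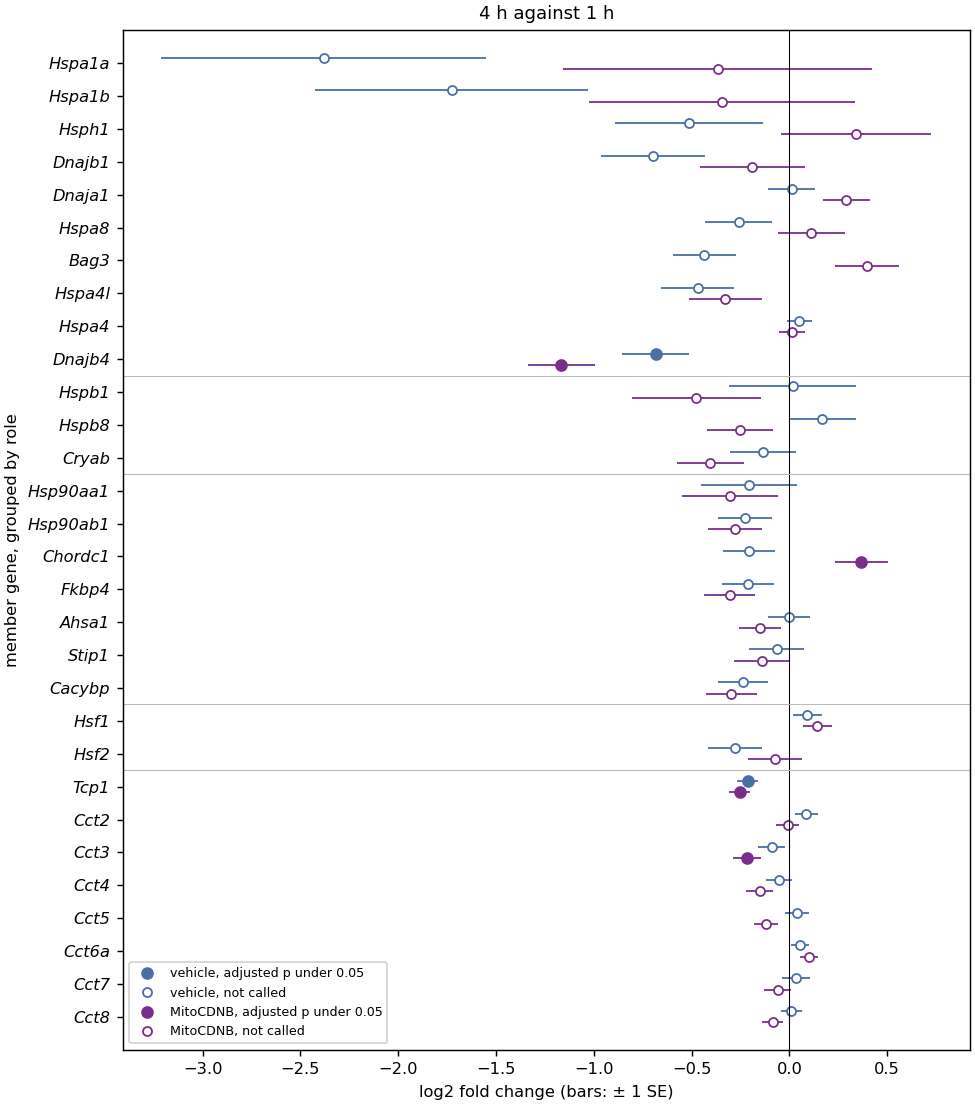
log2 fold change of 4 h against 1 h within vehicle and within MitoCDNB liver for each member, grouped by role, with bars of ± 1 SE. Filled points have an adjusted p under 0.05: Dnajb4 and Tcp1 in both treatments, and Chordc1 and Cct3 in MitoCDNB liver.

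Within groups, the HSP70 and HSP90 members tended to be high or low in the same libraries. Pearson's r was taken over the 24 libraries from edgeR's log2 CPM (prior count of 2), after each group's mean was taken off. It had a median of 0.87 over the 21 pairs of HSP90 genes (0.74 to 0.95) and of 0.66 over the 45 pairs of HSP70 genes (0.28 to 0.97). Hsph1 followed Chordc1 (0.94) and Hspa8 (0.92), and Hsp90aa1 followed Stip1 (0.95). Hspa1a and Hspa1b reached 0.97, and they may share reads. The CCT subunits had a median of 0.54 among themselves (0.29 to 0.88) of 0.56 with the HSP90 genes (0.11 to 0.83) and of 0.20 with Hspa1a (-0.21 to 0.46). These values are a description: all points share the same libraries and their scaling, and Vehicle 1 h replicates 1 and 2 are among them.

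Other genes of the chaperone pathways, taken from lists outside the 30, gave few treatment calls. At 1 h 1 of 18 other HSP70 system genes (5.56%, beside 6.57% of all genes tested) was called, Hspa2, an HSP70 best known from the testis. It measured 1.21, 1.39 and 2.10 CPM in Vehicle 1 h and 2.45, 5.13 and 8.09 CPM in MitoCDNB 1 h. The groups did not overlap, and Hspa2 rose by 1.76 on the log2 scale (SE 0.21, adjusted p = 4.74e-06, edgeR), opposite in sign to the called members. At 4 h it was at 0.81 and not called (adjusted p = 0.061, edgeR). Its 4 h groups did not overlap either, at 1.41 to 2.12 CPM in Vehicle 4 h and 2.24 to 3.85 CPM in MitoCDNB 4 h. That held for 0.896% of all genes tested, in either direction.

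Of 11 other HSP90 co-chaperones 1 (9.09%) was called at 1 h, again beside 6.57% of all genes tested: Unc45a, which helps HSP90 fold myosin, rose by 0.57 (SE 0.10, adjusted p = 8.51e-04, edgeR). It stood at 10.7 to 15.6 CPM in Vehicle 1 h and 16.5 to 22.9 CPM in MitoCDNB 1 h, without overlap, and was not called within 1 h replicates 4 to 6 alone (adjusted p = 0.0974). None of the 9 genes listed as prefoldin and phosducin-like helpers of CCT, which include the subunit gene Cct6b, was called at 1 h. None of 8 HSF1 targets outside the cytosolic chaperones was called at 1 h either. Nor was the tested small heat shock protein (1 of 4 listed) or the tested genes of the HSF family and HSF1-binding list (2 of 4 listed, Hsf4 and Hsbp1). At 4 h no gene of these lists was called. The highest log2 fold change at 4 h among the other HSP90 co-chaperones was 1.12, in Fkbp5. Its means were 74.1 CPM in Vehicle 4 h and 160.5 CPM in MitoCDNB 4 h, and the groups overlapped.

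Genes of these lists were also compared between times. In vehicle liver 1 of 18 other HSP70 genes rose (Bag5, by 0.44) and 1 fell (Bag2, by 0.69), both nucleotide exchange factors. These are 11.1% of that list, and the 1 call among 11 other HSP90 co-chaperones is 9.09%, where 5.44% of all genes were called. Fkbp5, an HSP90 co-chaperone of the glucocorticoid receptor, rose by 1.68 (SE 0.37, adjusted p = 0.0106, edgeR), from a median of 23.1 CPM at 1 h to 51.4 CPM at 4 h, where it ranged from 28.7 to 197 CPM. The autophagy receptor Sqstm1, from the list of HSF1 targets, fell by 0.30. In MitoCDNB liver 3 of 18 other HSP70 genes were higher and 3 lower at 4 h, and 2 of 11 HSP90 co-chaperones were higher and 2 lower. These shares, 33.3% and 36.4%, stand beside 28.5% of all genes tested. Fkbp5 rose by 2.97 there (SE 0.39, adjusted p = 1.01e-05), from 16.7 to 29.3 CPM at 1 h to 109 to 207 CPM at 4 h. Of the 2 tested genes of the HSF family and HSF1-binding list, Hsf4 rose (by 0.60) and Hsbp1 was not called. The CCT helper Pdcl rose by 0.32 and its relative Pdcl3 fell by 0.43. Among the HSF1 targets Dedd2 rose by 0.58 and Sqstm1 fell by 0.28.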

How the data were processed

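Poly(A) RNA-seq of 24 mouse livers was analysed from the table of raw counts per gene that the authors deposited. Per the submitters' processing notes, the authors used CASAVA 1.8.4, Trim Galore, HISAT2, DESeq2 and mm10; per the labels' protocols, libraries used the NEBNext Ultra kit. The counting tool, annotation and strand setting were not given in the sources used here. Counts were fitted in R 4.3.3 with edgeR 4.0.16 (TMM scaling, filterByExpr with a minimum count of 10 and total of 15, robust quasi-likelihood F test), with all 24 libraries and 4 groups in 1 model and Benjamini-Hochberg adjustment over 13833 genes. The filter removed 0.0306% of counts. The code was tested on simulated data. Gene positions and shared 50-base stretches come from GENCODE on mm10. All members were accounted for, those called in any comparison with their levels, and up to 4 called genes per other list were eligible to be named. Members and lists were chosen with earlier results of these data known. Alternatives were other scaling (DESeq2 size factors), no filter, DESeq2 1.42.0, fits of the compared groups only, a replicate block, omission of the major urinary protein genes, of each library and of libraries that stand apart, and 1 h replicates 1 to 3 or 4 to 6 alone, sets that the labels do not call batches. Same-numbered libraries did not all deviate together (correlations -0.213 to 0.265, not all over 0.1), so numbers were not taken to pair mice. Gene models in the annotation gave no coding exon length for Cct6a.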

Additional observations from a re-analysis of the deposited data

Results flagged for a closer look

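In 6 of the 120 sets of 6 libraries (30 members in 4 groups) the highest library stood apart from the rest by more than Dixon's 95% limit, and chance flags about 1 in 20 sets, here 6. Of these, 5 were replicate 4 of a MitoCDNB group. At 1 h, Hspa1a was 74.8 CPM in that library with the next at 31.0 CPM, and Dnajb1 was 23.9 CPM with the next at 16.7 CPM. At 4 h, Hspa1a was 74.8 CPM with the next at 20.5 CPM, Hspa1b 136 CPM with the next at 39.3 CPM, and Dnajb1 21.5 CPM with the next at 15 CPM. Replicates 4 of the 2 times share only a number, and 58.8% of the 50-base stretches of Hspa1a also occur in Hspa1b. In Vehicle 4 h, the CCT subunit Cct7 was 71.4 CPM in replicate 6 with the next at 58.0 CPM. No library was set apart at the low end by this limit.

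For Bag3 the MitoCDNB effect at 4 h differed from that at 1 h by 0.83 on the log2 scale in the test of the difference itself (adjusted p = 0.0374, edgeR), with the exceptions given above.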

How the results depend on the processing

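At 1 h the count of members called, 4, was 1 within 1 h replicates 1 to 3 alone, 1 within replicates 4 to 6 alone, and 2 to 5 when single libraries were left out. It was 3 without Vehicle 1 h replicates 1 and 2, an omission chosen after seeing the data. These were Bag3 and Chordc1, lower, and Dnajb4, higher with MitoCDNB. Hsph1 and Dnaja1 lost their calls there. At 4 h the count, 0, became 1 (Cacybp) without Vehicle 4 h replicate 1 and MitoCDNB 4 h replicate 2 together, with 247 genes called in all in place of 114, and was 0 to 1 under single omissions. For the difference between the effects the count of 1 became 0 with no filter on low counts, 0 within either set of 1 h replicates, 0 without Vehicle 1 h replicates 1 and 2, and 0 to 2 under single omissions. For vehicle liver over time the count of 2 became 0 when only the compared groups were fitted, 0 within either set of 1 h replicates, 0 without Vehicle 1 h replicates 1 and 2, and 1 to 2 under single omissions. For MitoCDNB liver over time the count of 4 became 9 when only the compared groups were fitted, and was 2 to 5 under single omissions. With the replicate number as a block, 3 members were called at 1 h, since Hsph1 lost its call (-1.33, adjusted p = 0.137, edgeR), and over time in MitoCDNB liver Chordc1 lost its call (adjusted p = 0.0511) and Bag3 gained one. No member called in any comparison reversed its direction under the alternatives run. The uncalled Hspa1a and Hspa1b turned at 1 h to 0.59 and 0.36 within replicates 4 to 6 and to 0.50 and 0.39 without Vehicle 1 h replicates 1 and 2, and Hspa1b at 4 h ran from -0.33 (without MitoCDNB 4 h replicate 4) to 0.89 under single omissions. The common biological coefficient of variation was 0.179; with 6 libraries per group, the SEs of Hspa1a (0.79) and Hspa1b (0.68) at 1 h limit what could be called there, and Cryab had the fewest counts, 26 in its lowest library.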
